A study of Rattus norvegicus with 12 samples.

Results

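The genes described are those of the proteasome and of the proteins that build and regulate it, measured in depolarized and control cultures of embryonic rat ventral midbrain. They were chosen by symbol alone, as genes whose single symbol in the array annotation starts with Psma, Psmb, Psmc, Psmd, Psme, Psmf or Psmg followed by a digit. The rule found 43 genes among the 10411 genes with a single symbol, on 46 probe sets, and where a gene had several, the brightest over the 12 arrays was used. Of these, 41 encode subunits, caps, the inhibitor or assembly chaperones. The remaining 2, Psmc3ip and Psme3ip1, entered through their symbols only and are not subunits. The genes Psmb6 and Psme3 occur here only in probe sets with several symbols and are not given values, and Psma8, Psmb11, Psmc6, Psmd12 and Psmd14 were not analysed here.

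The cultures came from ventral midbrain of CD1 rat embryos at embryonic day 12. All of them received bFGF, basic fibroblast growth factor (20 ng/ml), and SHH, a Sonic hedgehog fragment (50 ng/ml), for 6 days and were kept for 3 more days without both, with B27 supplement and no serum throughout. On culture day 9 the tested cultures were depolarized with 56 mM KCl for 2 h while controls stayed in control medium. RNA was taken after a further 30 min or 2 h, which gave 4 groups of 3 arrays: depolarized at 30 min, control at 30 min, depolarized at 2 h and control at 2 h. The embryos of 4 pregnant rats were combined and divided into 3 groups, each handled on its own, and each array held pooled RNA of duplicate cultures, so errors and p-values describe spread between pooled cultures and not between animals. The labels do not tell whether both collection times came from 1 preparation, so collection time and any batch cannot be told apart. The cultures are a mixture of cell types, and in such bulk RNA a change in the number of cells of a type and a change in RNA per cell cannot be told apart.

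The proteasome degrades proteins tagged with ubiquitin. Its barrel-shaped 20S core has outer rings of alpha subunits, encoded by Psma genes, and inner rings of beta subunits, encoded by Psmb genes, some of which cut the protein chain. The 19S regulator at its ends has a base with ATPases (Psmc genes) that unfold substrates, and a lid (mostly Psmd genes) that removes ubiquitin. Other caps (Psme genes) open the core without ubiquitin recognition, Psmf1 encodes an inhibitor, and the Psmg chaperones with Psmd5, Psmd9 and Psmd10 help to assemble the particle without staying in it. In neurons, proteasomes act in axons and at synapses as well as in the cell body, and they help to set the amounts of synaptic proteins during activity.

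Array values are RMA summaries on a log2 scale, in which 1 unit is a doubling, and a probe set's level is compared only with itself across arrays. The array medians lay between 8.33 and 8.43, the correlation over all probe sets was 0.9957 to 0.9979 for pairs from the same group and 0.9717 to 0.9922 for pairs from different groups. Neuronal markers (9 measured, among them Tubb3, Snap25 and Syt1) had array means of 10.60 to 10.71 in depolarized and 10.35 to 10.58 in control cultures at 30 min, and of 11.47 to 11.53 in depolarized and 11.47 to 11.51 in control cultures at 2 h. The 8 measured markers of dopaminergic neurons, which the ventral midbrain generates, among them Th, Ddc and Foxa2, had array means of 7.91 to 8.07 in depolarized and 7.60 to 7.72 in control cultures at 30 min, and of 8.31 to 8.69 in depolarized and 8.41 to 8.58 in control cultures at 2 h, and with no detection calls a low value cannot be read as absence. The probe sets of the proteasome genes had means between 5.42 and 12.75, with a median of 10.79. For 14 of the 43 genes the RefSeq annotation lists pseudogenes or near copies whose transcripts the probes might also bind, from 1 for Psma5, Psmb4 and Psmd1 to 10 for Psmb3, so their values are uncertain in that respect. Of the genes called after treatment, Psma3, Psmd1 and Psmg4 belong to them.

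Depolarization left most proteasome genes within a narrow range of their controls and changed a small number. At 30 min 2 of the 43 genes were higher in depolarized cultures, Psme4 and Psmd1, and 2 were lower, Psmg3 and Psmc3ip. Across all 15866 probe sets tested, 10.8% were called higher and 13.1% lower at this time, or 24% in either direction, so the proteasome genes' 9.30% lay below the background. At 2 h only Psme4 was called higher, and 8 genes were lower: Psmg3, Psmg4, Psmg2, Psmg1, Psma3, Psma4, Psmc3ip and Psme3ip1. The background at 2 h was 9.51% higher and 15.7% lower, or 25.2% in all, against 20.9% of the proteasome genes, and the 18.6% of proteasome genes that were lower is near the share of all probe sets that were. A call is an adjusted p under 0.05 by limma, adjusted by Benjamini-Hochberg across all 15866 probe sets. Most of these genes are bright, and among the 3260 probe sets with a mean of at least 10 the shares called were 27.1% at 30 min and 28% at 2 h. Without control array 6 of 2 h, or without depolarized array 1 of 30 min, 2 genes were higher at 2 h, Psmb8 beside Psme4.

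The differences of the proteasome genes were also small in size. At 30 min 39 of the 43 differed from control by less than 0.25 log2 units, and at 2 h 38 did, against 79.0% and 78.8% of all probe sets. The SD of the 43 differences was 0.166 at 30 min and 0.158 at 2 h, against 0.278 and 0.257 over all probe sets. Their median difference was 0.005 at 30 min and −0.04 at 2 h, beside 0.01 and −0.0007 for all probe sets, and no direction can be given for it at either time, since it was −0.05 at 30 min with quantile normalization and 0.002 at 2 h with each array centred on its median. For the 38 subunits and partners of the complex that were not called at 30 min, every 95% interval of the difference lay between −0.31 and 0.40, and for the 34 not called at 2 h between −0.32 and 0.41.

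**Figure D1:**
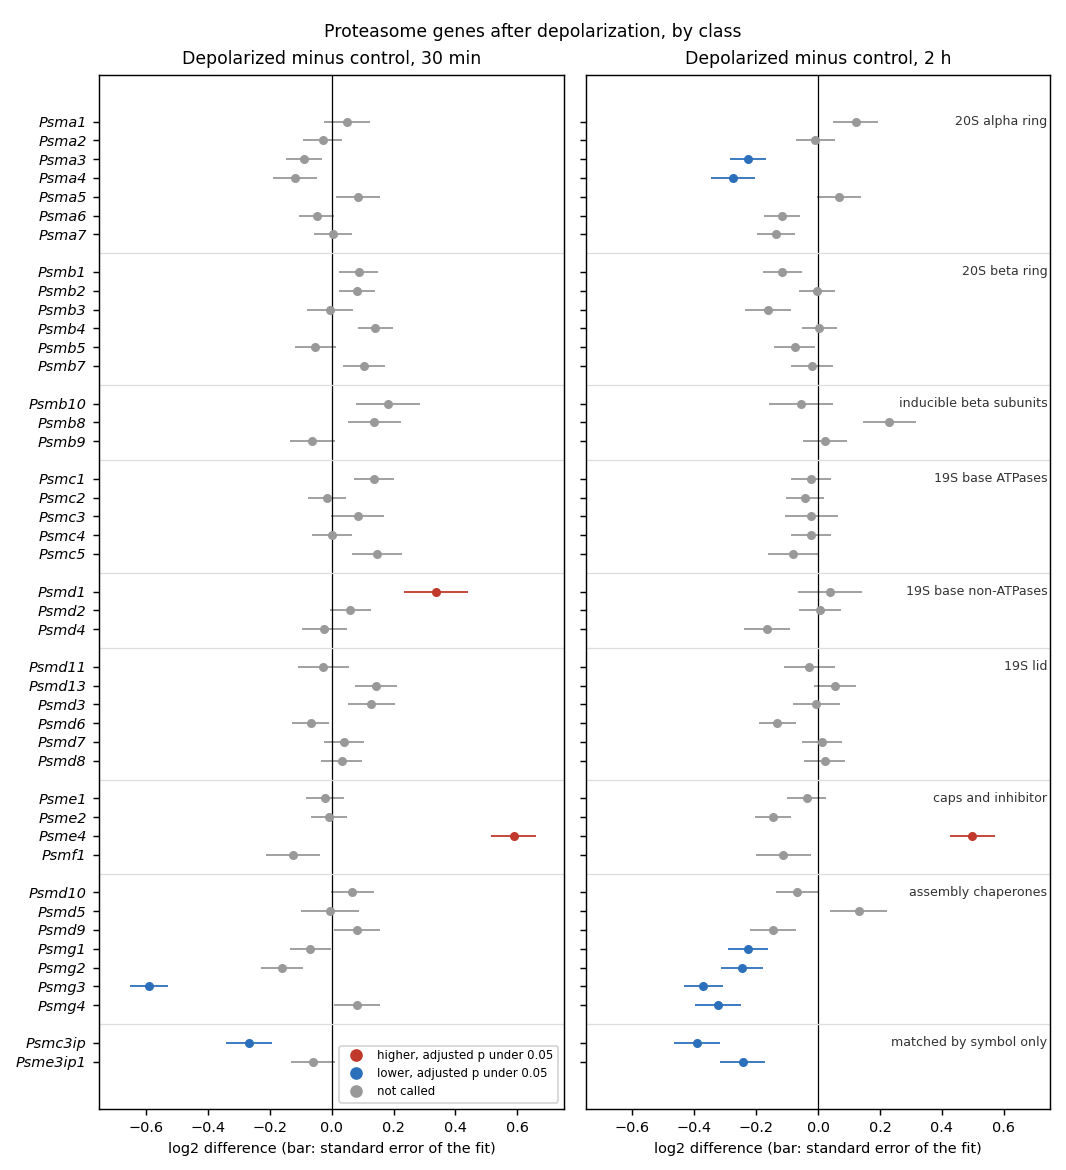
Log2 difference of depolarized minus control cultures for each of the 43 genes at 30 min (left) and 2 h (right), grouped by role, with bars for the standard error of the fit and n = 3 arrays per group. Red points were called higher and blue points lower at an adjusted p under 0.05, and grey points were not called. Psme4 stands out above 0 at both times and Psmg3 below 0 at both times, while the rings and the 19S base and lid lie close to 0 apart from Psmd1, Psma3 and Psma4.

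**Figure D2:**
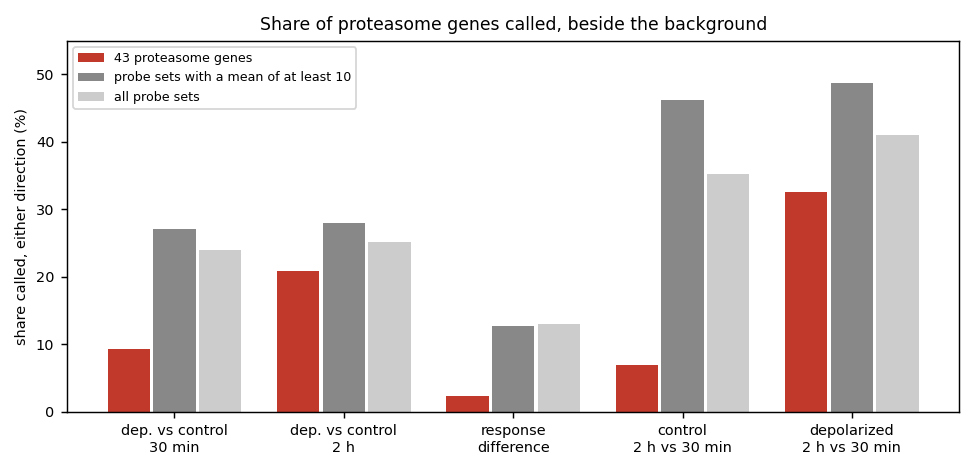
Percentage of genes or probe sets called in either direction in each of 5 comparisons, for the 43 proteasome genes (red), for probe sets with a mean of at least 10 log2 units (dark grey) and for all probe sets (light grey). The red bar is the lowest of the 3 in every comparison shown, at 9.30% and 20.9% after depolarization at 30 min and 2 h.

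In the alpha ring, whose subunits form the gate through which substrates enter, 0 of 7 genes were called at 30 min, with differences from −0.12 to 0.08. At 2 h 2 of 7 were lower and none was higher. Psma3, an alpha subunit, was at 10.45, 10.42 and 10.47 in depolarized cultures at 2 h, against 10.63, 10.70 and 10.69 in controls. Its 3 depolarized arrays lay below all 3 controls (difference −0.23, SE 0.06, adjusted p = 0.00854 by limma). At 30 min Psma3 stood at 10.21, 10.20 and 10.24 in depolarized and at 10.37, 10.31 and 10.24 in control cultures, a difference of −0.09 (adjusted p = 0.331). These depolarized arrays lay just below the controls, the highest at 10.236 against a lowest control of 10.240. The gene was also 0.37 higher in controls at 2 h than in controls at 30 min (adjusted p = 0.000126), so the depolarized arrays at 2 h, although below their own controls, lay above every array of 30 min.

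Psma4, another alpha subunit, had 10.76, 10.62 and 10.76 in depolarized cultures at 2 h, against 11.10, 10.94 and 10.93 in controls. The groups were apart, with a difference of −0.27 (SE 0.07, adjusted p = 0.00955). At 30 min its values were 10.82, 10.92 and 11.01 in depolarized and 11.04, 10.99 and 11.08 in control cultures, and the groups overlapped (−0.12, adjusted p = 0.287, or −0.17 with adjusted p = 0.0437 after quantile normalization). Without control array 4 the call of Psma4 at 2 h was lost (adjusted p = 0.0555). Psma1, an alpha subunit that was not called, had 11.52, 11.62 and 11.63 in depolarized against 11.51, 11.55 and 11.56 in control cultures at 30 min, and 11.63, 11.52 and 11.46 in depolarized against 11.54, 11.26 and 11.45 in control cultures at 2 h. Its groups overlapped at both times, with differences of 0.05 and 0.12 (adjusted p = 0.721 and 0.264).

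In the constitutive beta ring 0 of 6 genes were called at either time. The differences ran from −0.05 to 0.14 at 30 min and from −0.16 to 0.00 at 2 h. Psmb5 carries the chymotrypsin-like activity of the core. Its values were 12.73, 12.77 and 12.82 in depolarized against 12.81, 12.77 and 12.90 in control cultures at 30 min, and 12.68, 12.63 and 12.68 in depolarized against 12.87, 12.70 and 12.66 in control cultures at 2 h. The groups overlapped at both times (−0.05, adjusted p = 0.67, and −0.08, adjusted p = 0.46). Psmb4, a non-catalytic beta subunit, had the smallest p of the ring, with 12.65, 12.61 and 12.65 in depolarized and 12.53, 12.49 and 12.47 in control cultures at 30 min. These groups did not overlap, yet the difference of 0.14 (SE 0.06) missed the threshold (adjusted p = 0.0908), and it passed when each array was centred on its median (0.19, adjusted p = 0.0179). At 2 h Psmb4 stood at 12.60, 12.56 and 12.60 in depolarized and 12.63, 12.61 and 12.51 in control cultures, a difference of 0.00 (adjusted p = 0.973).

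The inducible beta subunits Psmb8, Psmb9 and Psmb10 replace the catalytic ones in the immunoproteasome, which interferon gamma induces and which makes peptides for display on MHC class I. None of the 3 was called after depolarization. Psmb8 was at 6.71, 6.66 and 6.75 in depolarized and 6.49, 6.30 and 6.64 in control cultures at 2 h. The depolarized arrays all lay above the controls, by 0.23 (SE 0.09), and the adjusted p was 0.0613. That difference passed with median centring (0.27, adjusted p = 0.0314) and without control array 6 (adjusted p = 0.0155). At 30 min Psmb8 had 6.96, 6.80 and 6.69 in depolarized and 6.67, 6.75 and 6.62 in control cultures (0.14, adjusted p = 0.308).

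Psmb9 had 5.43, 5.59 and 5.53 in depolarized and 5.62, 5.54 and 5.57 in control cultures at 30 min. At 2 h it had 5.38, 5.39 and 5.16 in depolarized and 5.23, 5.37 and 5.26 in control cultures, so treatment groups overlapped at both times (−0.06, adjusted p = 0.636, and 0.02, adjusted p = 0.868). Psmb10 had 8.78, 8.73 and 8.97 in depolarized against 8.68, 8.58 and 8.67 in control cultures at 30 min, and 8.56, 8.40 and 8.72 in depolarized against 8.69, 8.79 and 8.37 in control cultures at 2 h. At 30 min its groups were apart by 0.18 without passing (adjusted p = 0.253), and at 2 h they overlapped (−0.05, adjusted p = 0.761). Among 11 measured genes of the interferon response and of antigen processing, none was called at 30 min, while at 2 h Irf1, an interferon-induced transcription factor, was 0.32 higher (adjusted p = 0.00121), B2m, the light chain of MHC class I, was 0.17 higher (adjusted p = 0.0396) and Stat2, a mediator of interferon signalling, was lower (−0.26, adjusted p = 0.0129). At 2 h these were 18.2% higher and 9.09% lower, beside 9.51% and 15.7% of all probe sets, or 25.2% in either direction. The call of Stat2 was lost without control array 5 (adjusted p = 0.0560), and that of B2m was lost in 8 of the 12 fits that each left out 1 array (adjusted p up to 0.105). In the RefSeq annotation 1 protein-coding gene, the peptide transporter gene Tap1, separates Psmb8 from Psmb9.

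In the 19S base, 0 of 5 ATPase genes were called, with differences from −0.01 to 0.15 at 30 min and from −0.08 to −0.02 at 2 h. Psmc1 had 11.41, 11.36 and 11.44 in depolarized against 11.30, 11.24 and 11.26 in control cultures at 30 min. Its groups were apart by 0.14 (adjusted p = 0.162), and this passed with median centring (0.19, adjusted p = 0.0364). At 2 h its arrays overlapped, at 11.28, 11.14 and 11.32 in depolarized and 11.31, 11.32 and 11.18 in control cultures (−0.02, adjusted p = 0.845). For Psmc3, another ATPase, the values were 11.04, 11.21 and 11.31 in depolarized against 11.22, 11.05 and 11.03 in control cultures at 30 min, and 11.11, 11.00 and 11.29 in depolarized against 11.13, 11.22 and 11.12 in control cultures at 2 h. These overlapped at both times (0.08, adjusted p = 0.573, and −0.02, adjusted p = 0.887).

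Among the 3 base subunits without ATPase activity, Psmd1 was called at 30 min. Psmd1 encodes a large scaffold subunit of the base. It had 9.95, 9.69 and 9.82 in depolarized cultures at 30 min, against 9.23, 9.56 and 9.65 in controls. All 3 depolarized arrays lay above the controls (difference 0.34, SE 0.10, adjusted p = 0.0261), although the highest control lay only just below the lowest depolarized array. The call was lost without control array 1, the lowest of the controls (0.21, adjusted p = 0.153), without depolarized array 1 (adjusted p = 0.106) and without depolarized array 3 (adjusted p = 0.0630). At 2 h Psmd1 stood at 9.91, 9.64 and 9.81 in depolarized and 9.83, 9.77 and 9.64 in control cultures, and the groups overlapped (0.04, adjusted p = 0.838).

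Psmd4, a ubiquitin receptor of the base, had 10.43, 10.41 and 10.50 in depolarized against 10.53, 10.43 and 10.45 in control cultures at 30 min, and 10.20, 10.13 and 10.39 in depolarized against 10.45, 10.46 and 10.30 in control cultures at 2 h. The groups overlapped at both times, with differences of −0.02 (adjusted p = 0.885) and −0.17 (adjusted p = 0.119), and the difference at 2 h passed without depolarized array 6 (adjusted p = 0.0249). In the lid 0 of 6 genes were called, with differences from −0.07 to 0.14 at 30 min and from −0.13 to 0.05 at 2 h. Psmd6, a structural lid subunit, had 11.27, 11.33 and 11.38 in depolarized against 11.42, 11.32 and 11.44 in control cultures at 30 min (−0.07, adjusted p = 0.511). At 2 h it had 11.32, 11.29 and 11.35 in depolarized against 11.47, 11.48 and 11.39 in control cultures, apart by −0.13 and not called (adjusted p = 0.13), though called with quantile normalization (−0.14, adjusted p = 0.0491). Psmd11, a lid subunit that helps to hold the 26S particle together, lay between 11.22 and 11.25 in depolarized and between 11.16 and 11.35 in control cultures at 30 min, and between 11.18 and 11.29 in depolarized and between 11.10 and 11.46 in control cultures at 2 h. Its groups overlapped and differed by −0.03 at both times. Another Psmd11 probe set, 1376069_at, was not called either. It overlapped at 30 min (−0.01, adjusted p = 0.966), and at 2 h its depolarized arrays lay below the controls (−0.12, adjusted p = 0.376).

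Psme4 was the gene with the clearest rise, and the only 1 of the 43 called higher at both times. It encodes PA200, a large activator that caps the core independently of ATP and has been linked in other systems to the breakdown of acetylated histones. At 30 min it was at 11.08, 11.11 and 11.17 in depolarized cultures, against 10.64, 10.43 and 10.52 in controls. Every depolarized array lay above every control, and the level was 1.50-fold higher (difference 0.59, SE 0.07, adjusted p = 1.64e-05). By 2 h it stood at 11.12, 10.89 and 11.03 in depolarized cultures, against 10.52, 10.57 and 10.45 in controls. The groups were again apart, with a 1.41-fold higher level (0.50, SE 0.07, adjusted p = 0.000142). The responses at 2 h and 30 min differed by −0.09, which did not pass (adjusted p = 0.679), and leaving out any single array kept both calls, with differences from 0.54 to 0.64 at 30 min and from 0.44 to 0.56 at 2 h.

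The other probe sets of Psme4 did not all move the same way. Probe set 1387345_at was also higher in depolarized cultures, with 10.31, 10.09 and 10.21 against 9.80, 9.82 and 9.75 in controls at 30 min (0.42, SE 0.08, adjusted p = 0.000901). The 2 h values were 10.31, 10.01 and 10.16 in depolarized against 9.46, 9.52 and 9.61 in control cultures, which was again a rise (0.63, SE 0.08, adjusted p = 3.7e-05). The responses of this probe set did not differ by test (0.21, adjusted p = 0.257), and its controls were lower at 2 h than at 30 min (−0.26, adjusted p = 0.0189). Probe set 1368818_at overlapped at 30 min, with 9.92, 9.68 and 9.87 in depolarized and 10.02, 9.83 and 9.83 in control cultures (−0.07, adjusted p = 0.619). At 2 h this probe set was lower in depolarized cultures, at 10.04, 9.89 and 9.97 against 10.36, 10.23 and 10.13 in controls (−0.27, SE 0.08, adjusted p = 0.0217), a call that was lost without control array 4 (adjusted p = 0.109), control array 5 (adjusted p = 0.0534) or depolarized array 5 (adjusted p = 0.0789). The direction given for Psme4 therefore holds for 1368817_at, the brightest probe set, and for 1387345_at, and it is opposite on 1368818_at at 2 h. Which transcripts each probe set detects was not tested.

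**Figure D3:**
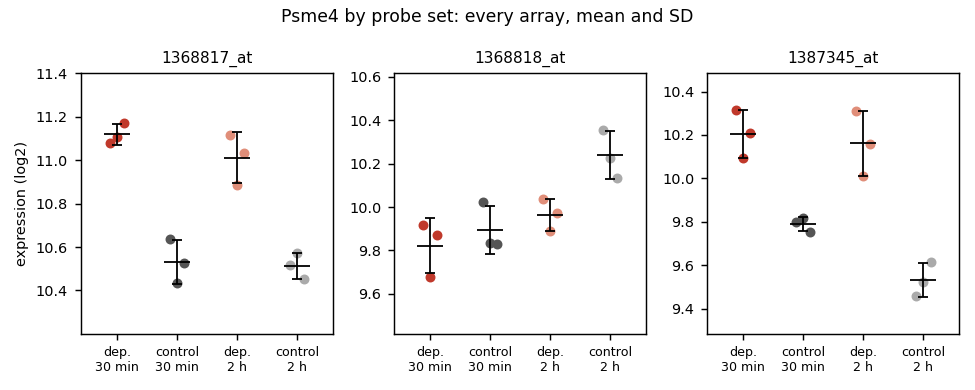
Log2 expression of the 3 Psme4 probe sets in every array of the 4 groups, with the mean and SD of 3 arrays. On 1368817_at and 1387345_at the depolarized arrays lie above the controls at both times, while on 1368818_at they overlap at 30 min and lie below the controls at 2 h.

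The other caps and the inhibitor were not called at either time. Psme1 and Psme2 encode the subunits of the PA28 cap, which interferon induces, and 1 protein-coding gene, Emc9, lies between them in the RefSeq annotation. Psme1 had 10.03, 10.03 and 10.16 in depolarized against 10.07, 10.07 and 10.14 in control cultures at 30 min, and 9.92, 10.00 and 9.90 in depolarized against 10.01, 10.00 and 9.91 in control cultures at 2 h. Its groups overlapped at both times (−0.02, adjusted p = 0.873, and −0.04, adjusted p = 0.725). Psme2 had 10.34, 10.31 and 10.34 in depolarized against 10.40, 10.28 and 10.34 in control cultures at 30 min (−0.01, adjusted p = 0.948). Its 2 h values were 10.20, 10.09 and 10.16 in depolarized against 10.31, 10.30 and 10.27 in control cultures, groups that were apart by −0.15 and not called (adjusted p = 0.0834). Psmf1, whose protein PI31 inhibits the core in the test tube, had 9.66, 9.87 and 9.87 in depolarized against 10.05, 9.73 and 10.00 in control cultures at 30 min, and 9.90, 9.83 and 9.89 in depolarized against 10.12, 9.96 and 9.88 in control cultures at 2 h. These overlapped at both times (−0.12, adjusted p = 0.384, and −0.11, adjusted p = 0.4).

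Of the 8 genes that were lower at 2 h, 4 were assembly chaperones. At 30 min 1 of their 7 genes was lower and none was higher, and at 2 h 4 of 7 were lower, which were the 4 Psmg genes, and none was higher. Over all probe sets 13.1% were lower at 30 min and 15.7% at 2 h. The chaperones' median difference was −0.005 at 30 min and −0.23 at 2 h, beside 0.01 and −0.0007 over all probe sets. The 4 Psmg proteins work in pairs, Psmg1 with Psmg2 and Psmg3 with Psmg4, and each pair helps the alpha ring to form. Of 8 progenitor markers, 3 were lower and 1 was higher at 2 h, with a median difference of −0.11. Their array means at 2 h were 10.28 to 10.38 in depolarized and 10.40 to 10.53 in control cultures. At 30 min 0 of 8 were called (median −0.008), and the array means were 10.74 to 10.81 in depolarized and 10.66 to 10.79 in control cultures. Oligodendrocyte lineage markers (7 measured) had array means of 7.76 to 7.78 in depolarized and 7.85 to 7.96 in control cultures at 2 h. There 2 were called lower, and the median difference was −0.007. At 30 min their array means were 8.32 to 8.38 in depolarized and 8.46 to 8.53 in control cultures. At that time 1 was called lower, and the median difference was −0.05. The part of either list in the falls of the chaperones was not tested.

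Psmg3 had the largest fall of the 43 genes at 30 min, at 9.51, 9.43 and 9.56 in depolarized cultures against 10.11, 10.08 and 10.07 in controls. The depolarized arrays lay well below the controls, whose spread was small, and the level was 0.665 times that of controls (difference −0.59, SE 0.06, adjusted p = 3.17e-06). Its values at 2 h were 9.65, 9.74 and 9.78 in depolarized cultures, against 10.16, 10.08 and 10.05 in controls. The groups remained apart, at 0.774 times the control level (−0.37, SE 0.06, adjusted p = 0.000421), and both calls held whichever single array was left out. Controls had a mean of 10.09 at both times, while depolarized cultures at 2 h were 0.23 above those at 30 min (adjusted p = 0.00855). The difference between both responses, 0.22 (SE 0.09), did not itself pass (adjusted p = 0.122), but it did with quantile normalization (0.30, adjusted p = 0.0167) and with a loess correction (0.27, adjusted p = 0.0305).

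Psmg4, the partner of Psmg3, was not lower at 30 min, with 10.76, 10.72 and 10.72 in depolarized against 10.57, 10.71 and 10.67 in control cultures (0.08, adjusted p = 0.518). There its depolarized arrays lay just above the controls, the lowest at 10.715 against a highest control of 10.711. Its 2 h values were 10.23, 10.45 and 10.30 in depolarized cultures, against 10.60, 10.78 and 10.57 in controls. Here all depolarized arrays lay below the controls (−0.32, SE 0.07, adjusted p = 0.00466). Psmg4 was the only 1 of the 43 genes whose responses at 2 h and 30 min differed by the test of that difference (−0.40, SE 0.11, adjusted p = 0.0175), against a background of 6.16% of probe sets called higher and 6.79% called lower in that test, or 13% in either direction and 12.7% of those with a mean of at least 10. This call was lost without control array 5 (adjusted p = 0.0509), without depolarized array 4 (adjusted p = 0.0515) and with quantile normalization (−0.33, adjusted p = 0.0645).

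Psmg2 was at 9.78, 9.65 and 9.75 in depolarized cultures at 2 h, against 9.96, 9.93 and 10.03 in controls. The groups were apart (−0.25, SE 0.07, adjusted p = 0.0132), and the call was lost without depolarized array 5 (adjusted p = 0.0581) and with a loess correction of each array (adjusted p = 0.0527). At 30 min Psmg2 had 10.00, 10.12 and 10.04 in depolarized and 10.31, 10.13 and 10.20 in control cultures, apart by −0.16 without passing (adjusted p = 0.106), though this passed with quantile normalization (−0.19, adjusted p = 0.0473). Psmg1, its partner, was at 10.42, 10.32 and 10.43 in depolarized cultures at 2 h, against 10.65, 10.67 and 10.53 in controls. That fall (−0.23, SE 0.07, adjusted p = 0.0182) was lost without control array 4 (adjusted p = 0.0647), control array 5 (adjusted p = 0.0775) or depolarized array 5 (adjusted p = 0.0732). At 30 min Psmg1 had 10.62, 10.57 and 10.55 in depolarized and 10.70, 10.55 and 10.68 in control cultures, which overlapped (−0.07, adjusted p = 0.549).

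The chaperones of the 19S base, Psmd5, Psmd9 and Psmd10, were not called after depolarization. Psmd9 had 9.54, 9.38 and 9.51 in depolarized against 9.42, 9.38 and 9.40 in control cultures at 30 min (0.08, adjusted p = 0.515). The 2 h values were 9.34, 9.09 and 9.24 in depolarized against 9.39, 9.44 and 9.28 in control cultures, and these overlapped (−0.15, adjusted p = 0.171). Of the genes matched by symbol only, Psmc3ip encodes a partner of the recombinase Dmc1 in meiotic recombination and is no part of the proteasome. It was lower at both times, with 9.42, 9.26 and 9.24 in depolarized against 9.63, 9.50 and 9.58 in control cultures at 30 min (−0.27, SE 0.07, adjusted p = 0.0134), and with 9.08, 8.99 and 9.13 in depolarized against 9.53, 9.50 and 9.34 in control cultures at 2 h (−0.39, SE 0.07, adjusted p = 0.00104). Its call at 30 min was lost without control array 1 (adjusted p = 0.0610), depolarized array 2 (adjusted p = 0.0568) or depolarized array 3 (adjusted p = 0.0594).

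Psme3ip1 encodes a nuclear protein that binds Psme3. It had 10.36, 10.25 and 10.38 in depolarized against 10.45, 10.28 and 10.44 in control cultures at 30 min (−0.06, adjusted p = 0.644). At 2 h it was lower, at 10.22, 10.10 and 10.05 in depolarized against 10.44, 10.37 and 10.28 in control cultures (−0.24, SE 0.07, adjusted p = 0.0201). Leaving out any 1 of 4 arrays of that comparison (control 4, control 5, depolarized 5 or depolarized 6) ended the call, with adjusted p from 0.0539 to 0.0894. Over the whole set, 5 rather than 8 genes were lower at 2 h without control array 4, and likewise without depolarized array 5.

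**Figure D4:**
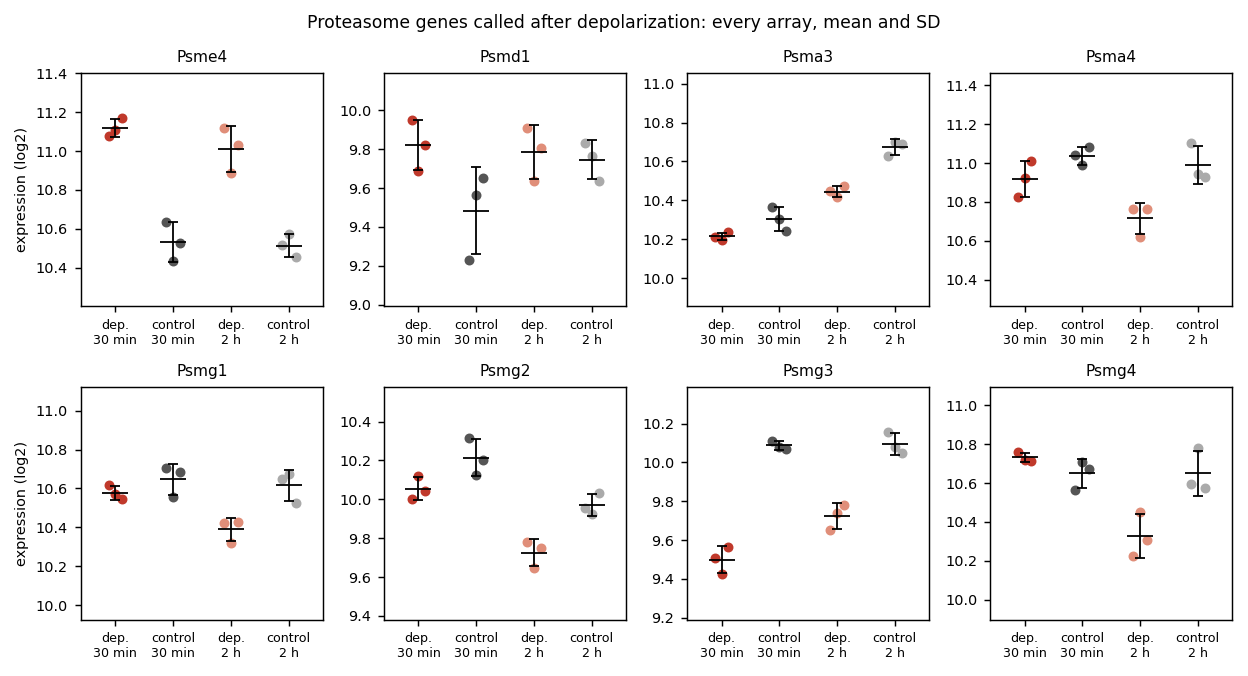
Log2 expression of the 8 genes of subunits, caps and assembly chaperones called after depolarization, in every array of the 4 groups, with the mean and SD of 3 arrays. Psmc3ip and Psme3ip1, matched by symbol only, are not shown. Psme4 lies higher and Psmg3 lower in depolarized cultures at both times, Psmd1 is apart from its controls only at 30 min, and the depolarized arrays of Psma3, Psma4, Psmg1, Psmg2 and Psmg4 lie below their controls at 2 h.

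The promoters of the 2 genes that rose, of the catalytic subunit Psmb5 and of Psmg3, which fell, are shown because the transcription factors Nfe2l1 and Nfe2l2, described next, are known to drive proteasome genes through antioxidant response elements. Each run gives the 250 bases before the start of the gene from RefSeq on build GRCr8, read along the gene, and capitals mark matches to the element's core, TGACNNNGC on either strand.
Psme4 promoter, chr14:108706393-108706642, plus strand: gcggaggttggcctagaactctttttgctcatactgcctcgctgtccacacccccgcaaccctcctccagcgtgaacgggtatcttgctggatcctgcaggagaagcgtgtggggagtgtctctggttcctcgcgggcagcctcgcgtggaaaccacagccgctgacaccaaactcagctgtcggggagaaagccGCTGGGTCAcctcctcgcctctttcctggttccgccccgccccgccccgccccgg
Psmd1 promoter, chr9:94157721-94157970, plus strand: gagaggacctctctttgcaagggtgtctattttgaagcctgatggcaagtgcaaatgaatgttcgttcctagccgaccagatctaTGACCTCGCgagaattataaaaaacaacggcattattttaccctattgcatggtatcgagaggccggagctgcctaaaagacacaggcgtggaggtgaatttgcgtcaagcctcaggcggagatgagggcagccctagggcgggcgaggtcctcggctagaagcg
Psmb5 promoter, chr15:32047380-32047629, minus strand: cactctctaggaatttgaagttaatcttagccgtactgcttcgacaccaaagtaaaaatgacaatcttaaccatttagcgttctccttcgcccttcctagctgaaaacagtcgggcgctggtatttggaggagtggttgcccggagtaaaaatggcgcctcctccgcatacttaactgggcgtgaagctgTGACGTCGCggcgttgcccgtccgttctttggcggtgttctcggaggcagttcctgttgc
Psmg3 promoter, chr12:19923038-19923287, plus strand: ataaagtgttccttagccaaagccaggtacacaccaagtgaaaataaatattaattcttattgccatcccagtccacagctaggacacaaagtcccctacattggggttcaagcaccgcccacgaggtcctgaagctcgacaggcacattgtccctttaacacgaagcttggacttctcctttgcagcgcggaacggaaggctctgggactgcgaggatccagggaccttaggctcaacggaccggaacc
Psme4, Psmd1 and Psmb5 hold a match and Psmg3 holds none in this window. These 4 promoters were picked with the calls known, so they cannot test a link between a match and a change. Promoters were found for 41 of the 43 genes, in windows of 250 bases before and 50 after the start, with no entry for Psma7 and Psmd6. Of the 41, 7 held the core (17.1%): Psma3, Psmb2, Psmb5, Psmd1, Psmd3, Psmd9 and Psme4. The core occurred in 12.1% of all 33469 promoters of that length, so it is common by its letters alone. These 7 genes include one that fell at 2 h, Psma3, beside the 2 that rose. The others, Psmb2, Psmb5, Psmd3 and Psmd9, were not called after depolarization at either time. Other motifs, chosen after results were known, were the ETS core CCGGAAG in 14 of 41 (34.1%, against 8.75% of all promoters), the CCAAT box in 22 of 41 (53.7%, against 37.5%) and the cAMP response element TGACGTCA in 1 of 41, Psmb2 (2.44%, against 1.83%). A match describes letters in the window and not binding.

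Genes that work with the proteasome included several that changed. Of 36 listed genes (ubiquitin shuttles, deubiquitinases, transcription factors of proteasome genes and others) 25 were measured, and at 30 min 8 were higher and 2 lower (median difference 0.13), while at 2 h 5 were higher and 3 lower (median 0.02). At 30 min 32% were called higher, beside a background of 10.8%, and at 2 h 20% were, beside 9.51%. Called lower were 8% at 30 min, beside 13.1%, and 12% at 2 h, beside 15.7%. The list was chosen with earlier results of these data known, so these shares cannot test whether such genes respond. Akirin2, a nuclear protein that brings proteasomes into the nucleus, was at 10.14, 9.90 and 10.11 in depolarized cultures at 30 min, against 9.57, 9.15 and 9.39 in controls. It rose by 0.68 (SE 0.11, adjusted p = 0.000237), and at 2 h the difference was 0.20 and did not pass (adjusted p = 0.224), though it did without depolarized array 5 (0.32, adjusted p = 0.0368). The responses of Akirin2 at 2 h and 30 min differed by −0.48, which was not called. It passed with median centring (−0.49, adjusted p = 0.0415), without the dimmest 25% of probe sets, with a trended and robust prior and with a replicate block. It also passed in 4 of the 12 fits that each left out 1 array. Zfand5, a ubiquitin-binding activator of the 26S particle, was 0.37 higher at 30 min (adjusted p = 0.000603) and differed by −0.05 at 2 h, and these responses differed (−0.42, adjusted p = 0.00716). Controls of Zfand5 were higher at 2 h than at 30 min (0.34, adjusted p = 0.000943), and for depolarized cultures that difference was −0.08 and not called (adjusted p = 0.348). The shuttle Ubqln4 rose by 0.37 (adjusted p = 0.00104), the autophagy receptor Sqstm1 by 0.29 (adjusted p = 0.00212) and the unfolding ATPase Vcp by 0.23 (adjusted p = 0.0102) at 30 min, when Ube3c, a ubiquitin ligase bound to proteasomes, was lower (−0.38, adjusted p = 0.000913). The responses of Ube3c at 2 h and 30 min differed by 0.32, which was not called. This difference passed with median centring (adjusted p = 0.0445), quantile normalization (adjusted p = 0.0107) and a loess correction (adjusted p = 0.0121). It also passed without the dimmest 25% of probe sets, with a trended and robust prior and in 2 of the 12 fits that each left out 1 array.

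At 2 h Nfe2l2, the transcription factor of the oxidative stress response, was higher after depolarization, with 10.02, 9.49 and 9.84 in depolarized against 9.12, 9.08 and 9.02 in control cultures. All depolarized arrays lay above the controls (0.71, SE 0.10, adjusted p = 0.000124), while at 30 min the difference was 0.14 (adjusted p = 0.415), and the responses differed (0.57, adjusted p = 0.0144). Controls of Nfe2l2 were lower at 2 h than at 30 min (−0.38, adjusted p = 0.00849), and for depolarized cultures that difference was 0.19 and not called (adjusted p = 0.143). Nfe2l1, which raises proteasome genes when proteasomes are inhibited, was called at neither time, with 0.05 at 30 min (adjusted p = 0.778) and 0.09 at 2 h (adjusted p = 0.505). The protease gene Ddi2, whose product activates Nfe2l1, was lower at 2 h (−0.61, SE 0.12, adjusted p = 0.00118) and at 30 min (−0.39, adjusted p = 0.0217), where leaving out control array 1, control array 2 or depolarized array 2 ended the call (adjusted p = 0.0825, 0.0642 and 0.128). Zfand2a, a stress-induced proteasome partner, rose by 0.63 at 2 h (SE 0.07, adjusted p = 1.23e-05) and by 0.26 at 30 min (adjusted p = 0.011, or 0.0624 without control array 2). Its responses differed by 0.37 (adjusted p = 0.0184), a call lost without control array 3 (adjusted p = 0.0567) or control array 5 (adjusted p = 0.0541). Txnl1, a thioredoxin-like protein of the 19S regulator, rose by 0.55 at 2 h (adjusted p = 0.00748) and by 0.47 at 30 min (adjusted p = 0.0183), where the call was lost without control array 3 (adjusted p = 0.0931), without depolarized array 2 (adjusted p = 0.102) and with quantile normalization (adjusted p = 0.0504). At 2 h Sqstm1 remained 0.26 higher (adjusted p = 0.00582), while Nub1, which directs NEDD8 and its conjugates to the proteasome, was lower (−0.39, adjusted p = 0.000618). Ubqln4 was also still higher at 2 h (0.21, adjusted p = 0.0375). That call was lost in 3 of the 12 fits that each left out 1 array (adjusted p up to 0.202). It was also lost in the fit of only the arrays compared (adjusted p = 0.0801) and with a replicate block (adjusted p = 0.0598). Pomp, the chaperone that matures the beta rings, was not called, with 0.02 at 30 min (adjusted p = 0.883) and −0.09 at 2 h (adjusted p = 0.356), and Usp14 was not analysed here.

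The collection times were compared within the control and within the depolarized cultures. In control cultures 1 of 43 was higher at 2 h than at 30 min and 2 were lower, 6.98% in all, against 18.1% of probe sets higher and 17.2% lower, or 35.3% in either direction. Among probe sets as bright as most of them, with a mean of at least 10, the background was 46.2%. Psma3 was the gene that was higher (0.37), Psmb9 was lower (−0.29, SE 0.07, adjusted p = 0.00532) and Psmg2 was lower (−0.24, adjusted p = 0.00993, or 0.0556 without control array 1). Leaving out control array 3 or control array 6 gave 2 genes higher in place of 1. Quantile normalization gave 8 lower in place of 2, and a loess correction gave 4. In the same comparison 9 of 9 neuronal markers were higher (median difference 1.06) while 5 of 8 progenitor markers (median −0.40) and 6 of 7 oligodendrocyte lineage markers (median −0.27) were lower. Interferon and antigen processing genes were lower in 3 of 11 cases, B2m, Irf1 and Irf9, beside Psmb9. Psmb9 was the dimmest of the 43 genes, with a mean of 5.42 beside a lowest single value of 4.41 in the data. It was left out with the dimmest 25% of probe sets. The call of Irf9 was lost in 6 of the 12 fits that each left out 1 array (adjusted p up to 0.117), with quantile normalization (adjusted p = 0.133) and with loess (adjusted p = 0.131), and that of Irf1 with loess (adjusted p = 0.0522). The part of any marker list in these differences was not tested.

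In depolarized cultures 2 of 43 genes were higher at 2 h than at 30 min and 12 were lower, 4.65% and 27.9%, against 19.2% of probe sets higher and 21.8% lower, or 41% in either direction and 48.7% among those with a mean of at least 10. Psma3 (0.23, adjusted p = 0.00466) and Psmg3 (0.23) were higher. The lower genes were led by Psmg4 (−0.41, adjusted p = 0.000419) and Psmg2 (−0.33, adjusted p = 0.00099), with differences of −0.16 to −0.25 for Psma4, Psma5, Psma6, Psmb9, Psmd4, Psmd9, Psme2, Psmg1, Psmc3ip and Psme3ip1. This count rested on a few arrays, since 7, 7 and 6 genes were lower without depolarized arrays 1, 2 and 3 of 30 min and 3 without depolarized array 5 of 2 h, while 16 were lower with median centring and 17 with quantile normalization. In this comparison 8 of 9 neuronal markers were higher, and 5 of 8 progenitor, 5 of 7 oligodendrocyte lineage and 5 of 11 interferon and antigen processing genes were lower. Their part in the proteasome genes' differences was not tested. Taken as the difference between both treatment responses, 36 of the 43 values were below 0, with a median of −0.09. The median was −0.02 over all probe sets, of which 46.3% were above 0, and −0.05 over those with a mean of at least 10, of which 37.8% were. With quantile normalization the median of the 43 was −0.04. Only Psmg4 passed in that test, and for 38 of the 40 other subunits and partners of the complex the 95% interval lay within 0.5 log2 units of 0.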

How the data were processed

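The authors deposited 1 log2 value per probe set and array of a single-colour Affymetrix rat array. The submitters' processing notes name RMA without a version, and which arrays were normalized together is not given in the sources used here. The table held 15923 probe sets, and 57 array controls were left out. These values carry neither read depth nor detection calls, and precision is limited by the number of arrays. In the array's annotation 12783 probe sets had 1 symbol, 312 had several and 2771 had none, and no gene was named from a probe set with several. All 43 genes were found in RefSeq by gene ID, with 0 symbols changed.

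One model with a mean per group took in all 12 arrays, using limma 3.58.1 in R 4.3.3 (8 residual degrees of freedom, moderated by eBayes, no replicate block). Tests were two-sided, with adjustment over 15866 probe sets and a threshold of 0.05, in 5 comparisons. Fitted differences carry the SE of the fit. The fit was tested on simulated arrays. The members, lists and motifs were chosen with earlier results of these data known. Genes were named by rule: up to 10 called per treatment comparison and up to 5 per other comparison by smallest p, the smallest p of each class, and a fixed set of subunits. Partner genes named were those with the smallest p, up to 6 per treatment comparison, and 5 others always.

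The labels do not tie the replicate numbers to a shared embryo group, so the numbers were not taken as pairs. Deviations from the group means of same-numbered depolarized and control arrays had correlations of −0.32, 0.23, 0.05, 0.24, −0.11 and −0.24 for numbers 1 to 6. With so few arrays per group these values cannot show whether the arrays were paired. Alternatives were median centring, quantile normalization, a loess correction, leaving out the dimmest 25% of probe sets, averaging a gene's probe sets, fits of only the arrays compared, a threshold of 0.01, a trended and robust prior, a replicate block, and fits with 1 array left out at a time.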

Additional observations from a re-analysis of the deposited data

Results flagged for a closer look

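The response of Psmg4 differed between the collection times by a test of the difference itself. The difference between depolarized and control cultures was −0.32 log2 units at 2 h and 0.08 at 30 min, and the responses differed by −0.40 (SE 0.11, adjusted p = 0.0175 by limma). This call was lost without control array 5 (adjusted p = 0.0509), without depolarized array 4 (adjusted p = 0.0515) and with quantile normalization (adjusted p = 0.0645). It was also lost at a threshold of 0.01. In the same test 13% of all probe sets were called in either direction. RefSeq lists 3 near copies of Psmg4.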

How the results depend on the processing

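Of 301 alternative counts and medians over the proteasome genes, 36 moved by more than the tolerance, which was a factor of 1.5 for counts and the typical spread between replicates for medians. The median of the 43 genes changed sign at 30 min with quantile normalization (−0.05) and loess (−0.007), and at 2 h with median centring (0.002). For the named genes, partner genes included, 4263 of 4463 alternative differences kept their call status, 137 were no longer called and 63 became called. Of those called in either fit, 0 changed sign. Differences that were not called could change sign and were still counted as kept. That of Psmb10 at 2 h ran from −0.18 to 0.03 with single arrays left out. Median centring gave 5 genes higher at 30 min (Psme4, Psmd1, Psmb4, Psmc1 and Psmd13) in place of 2, and 2 higher at 2 h in place of 1. Over all probe sets at 30 min it gave 2339 higher and 1631 lower, against 1720 and 2085 as reported, and at 2 h 2014 and 1903, against 1509 and 2492. Quantile normalization gave 4 lower at 30 min in place of 2, 1 higher (Psmg3) and 0 lower in the response difference in place of 0 and 1, and, between the controls of both times, 8 lower in place of 2 with a median of −0.0913 in place of −0.002. The loess correction gave 1 higher (Psmg3) in the response difference and 4 lower between the controls. Leaving out the dimmest 25% gave 1 lower between the controls, since Psmb9 was among the probe sets left out. With a threshold of 0.01, 1 gene was higher and 1 lower at 30 min, 5 were lower at 2 h, 0 were lower in the response difference and 2 were lower between the depolarized cultures; over all probe sets the counts at 2 h were then 934 higher and 1476 lower. The trended and robust prior gave 2 higher between the controls. With replicate number as a block, 2 were higher at 2 h in place of 1 (Psmb8 beside Psme4). With single arrays left out, 1 to 2 were higher and 1 to 2 lower at 30 min, 1 to 2 higher and 5 to 8 lower at 2 h, 0 higher and 0 to 1 lower in the response difference, 1 to 2 higher and 1 to 3 lower between controls, and 2 to 3 higher and 3 to 13 lower between depolarized cultures. The medians then ran from −0.02 to 0.05 at 30 min, from −0.08 to −0.02 at 2 h, from −0.14 to −0.07 for the response difference, from −0.03 to 0.03 between controls and from −0.12 to −0.07 between depolarized cultures. The cause of these shifts was not tested.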
